A study of Mus musculus with 4 samples.

Results

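NADPH oxidases and their subunits were examined in cells of the mouse breast cancer line 4T1, in a population labelled positive and a population labelled negative for CD44v8-10, a form of the surface receptor CD44 with variant exons. The 7 genes listed were Nox1, Nox4, Cyba, Cybb, Duox1, Duox2 and Poldip2. They were chosen by gene symbol, with the signals of this comparison already known. Their differences are therefore given as a description and are not used as tests. How many of them the fit over all genes called is given beside the calls over all genes. Every probe set that the platform annotation pairs with 1 of these symbols alone was taken, which gave 9 of the 45101 probe sets on the array, for 5 of the 7 genes. Nox1 and Duox2 had no probe set named for them here. Of the 9 probe sets, 6 passed the filter on dim signals, and they stood for 4 genes: Nox4, Cyba, Duox1 and Poldip2.

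The study set 2 CD44v8-10-positive samples against 2 CD44v8-10-negative samples, with 1 one-colour Affymetrix array for each. Both populations were grown in RPMI 1640 with 10% bovine serum, kept in normoxia and picked by hand under a dissecting microscope. The labels name no drug and no genetic change in either population, and do not say how CD44v8-10 was scored. They also do not say whether the samples of a group were separate cultures, so p-values rest on the spread of these arrays alone, which may be technical. The stated question was to what degree expression differs between the populations.

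NADPH oxidases are membrane enzymes that pass electrons from NADPH to oxygen and thereby make superoxide or hydrogen peroxide. The catalytic subunits Nox1, Cybb (also called Nox2 or gp91phox) and Nox4 each work with the small membrane partner Cyba (p22phox). Cybb, best known from phagocytes, and Nox1 also need cytosolic organisers, activators and a Rac GTPase, whereas Nox4 is active once it is bound to Cyba and releases mainly hydrogen peroxide. Poldip2 binds Cyba and raises the activity of Nox4. Duox1 and Duox2 are calcium-regulated oxidases of epithelial surfaces and leave the endoplasmic reticulum with the help of the maturation factors Duoxa1 and Duoxa2. In epithelial and carcinoma cells, Nox4 is known as a gene induced by TGF-beta.

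The arrays differed in overall brightness, with median deposited intensities of 28.6 to 52.3, and were quantile normalized; signals below are the normalized ones unless deposited ones are named. Probe sets with a mean below the 40th percentile, a signal of 19.4, were not tested. Across the 11956 genes tested, Pearson correlations were 0.972 within the positive group, 0.981 within the negative group and 0.968 to 0.985 between groups, so the ranges within and between groups overlapped. The simple-epithelial keratins Krt8, at 7719 to 8829, and Krt18, at 10561 to 12998, were bright on all 4 arrays. RNA came from whole populations, so a smaller share of expressing cells and less RNA per cell cannot be told apart. The number of arrays, 2 in each group, limits the precision of every value.

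Promoter sequence is a feature that the choice of genes did not use. The RefSeq promoter table (GRCm38.p6) held a window of 300 bases, 250 before and 50 after the start, for each of the 7 genes. The windows shown are that of Nox4, which had the largest difference of the 4 oxidase genes that passed the filter, that of its partner Cyba, and that of Cybb, whose probe sets did not pass. Capitals mark matches, on either strand, to the letters of 3 common promoter motifs. The first motif was the GC box, GGGCGG. The second was the CCAAT box, spelled as its name says. The third was GAGGAA, the core of the site of PU.1, a transcription factor of myeloid cells. No matches overlapped in these windows. The Nox4 window is chr7:87246399-87246698 on the plus strand, the Cyba window chr8:122432891-122433190 on the minus strand, and the Cybb window chrX:9469275-9469574 on the minus strand.
Nox4: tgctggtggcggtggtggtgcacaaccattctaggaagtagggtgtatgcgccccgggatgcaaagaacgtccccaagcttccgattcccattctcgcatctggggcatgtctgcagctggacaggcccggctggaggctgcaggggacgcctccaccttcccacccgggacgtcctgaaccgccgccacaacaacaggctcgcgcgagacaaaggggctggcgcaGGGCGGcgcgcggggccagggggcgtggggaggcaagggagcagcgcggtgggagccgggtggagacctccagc
Cyba: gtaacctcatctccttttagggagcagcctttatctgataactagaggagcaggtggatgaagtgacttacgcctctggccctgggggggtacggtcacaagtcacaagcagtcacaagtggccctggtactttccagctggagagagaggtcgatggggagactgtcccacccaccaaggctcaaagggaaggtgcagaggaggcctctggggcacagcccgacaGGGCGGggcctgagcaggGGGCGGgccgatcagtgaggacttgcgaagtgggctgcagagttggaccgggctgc
Cybb: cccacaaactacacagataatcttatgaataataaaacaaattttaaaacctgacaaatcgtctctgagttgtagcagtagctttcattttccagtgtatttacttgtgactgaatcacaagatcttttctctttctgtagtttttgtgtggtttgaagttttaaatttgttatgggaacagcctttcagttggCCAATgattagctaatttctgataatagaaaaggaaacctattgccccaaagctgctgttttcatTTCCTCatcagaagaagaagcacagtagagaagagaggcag

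The Nox4 window was 68.3% G and C with 24 CpG pairs, the Cyba window 60.7% with 9, and the Cybb window 35.3% with 1. The median of 32851 such windows was 52.7% with 7. The Nox4 window held 1 GC box and the Cyba window 2, and neither held the other motifs. The Cybb window held 0 GC boxes, 1 CCAAT box and 1 PU.1 core. In all windows of this length, 35.7% held a GC box, 37.4% a CCAAT box and 28.3% a PU.1 core. The window of Poldip2 was 72.0% G and C with 4 GC boxes, and that of Duox1 46.7% with none of the motifs. Of the genes with no probe set here, Nox1 had 38.0% G and C and 1 PU.1 core, and Duox2 had 55.3% and 1 CCAAT box. These matches describe letters and are not binding sites.

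Nox4 was brighter in the CD44v8-10-positive cells on both of its probe sets. With 1451827_a_at, the signals were 151.8 and 114.1 in positive cells, against 38.6 and 45.9 in negative cells. Each positive array was above each negative array, and all 4 were above the filter level of 19.4. On the log2(signal + 16) scale the difference, positive minus negative, was 1.35 ± 0.29 (SE, n = 2 each), which is 2.54-fold. Here and below the SE is limma's moderated one. It borrows spread from other genes and is not the spread of these 4 values alone. With 1419161_a_at, the signals were 133.9 and 83.4 in positive cells, against 27.2 and 37.6 in negative cells, and the log2 difference was 1.34 ± 0.32 (SE). Both probe sets read the same RNA samples, so they are not separate replicates. The lower positive and the higher negative array were 1.07 apart in log2 units with 1451827_a_at and 0.89 with 1419161_a_at. The 2 positive arrays differed from each other by 0.37 and 0.59, and the 2 negative arrays by 0.18 and 0.31.

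The Nox4 groups were also apart in the deposited intensities, whose own scaling is not given. Those of 1451827_a_at were 135.3 and 102.0 in positive cells, against 28.7 and 63.9 in negative cells. Over 15 other settings its log2 difference ran from 0.88, with a pseudocount of 64, to 1.62, with a pseudocount of 1. Some of these settings, such as no filter, cannot change it. Leaving out 1 array at a time gave 1.16 to 1.58. Among the 11956 genes tested, 33, or 0.276%, had a larger absolute difference than Nox4, 29 of them in the same direction. Since Nox4 was picked with its value known, this rank only places it.

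**Figure D1:**
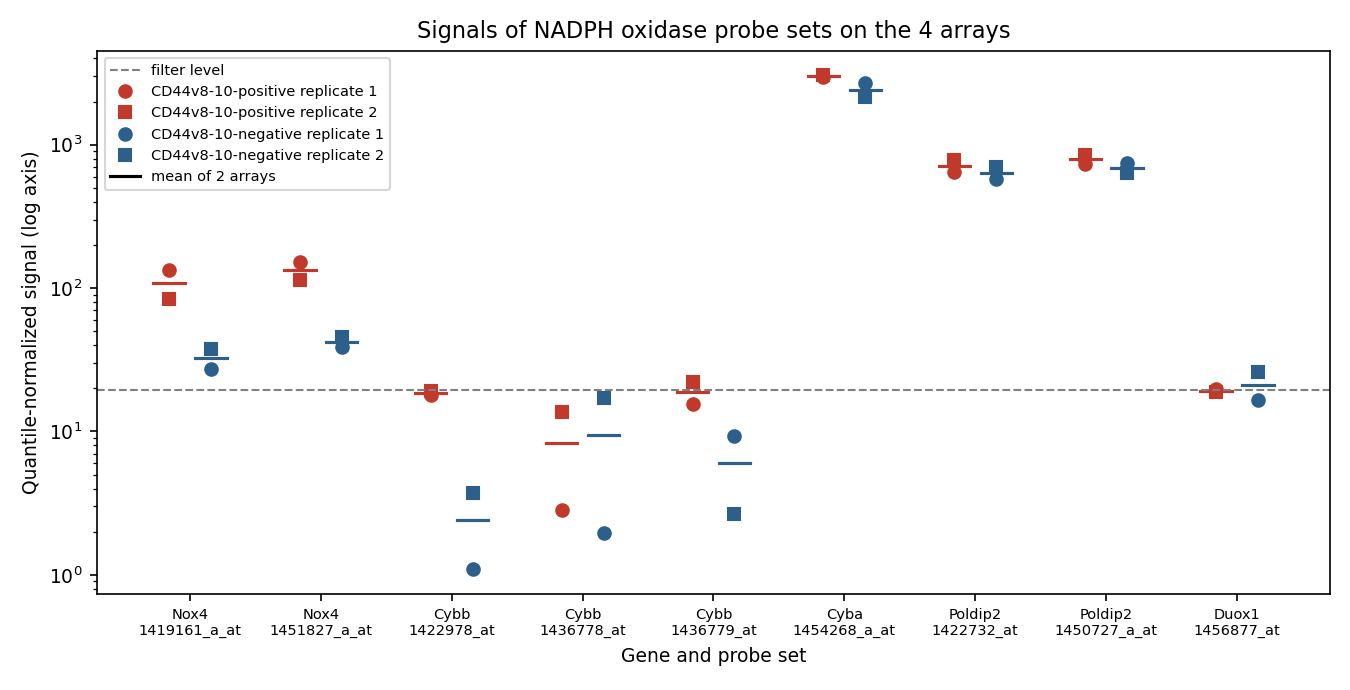
Quantile-normalized signal (log axis) of the 9 oxidase probe sets on the 4 arrays; circles are replicate 1, squares replicate 2, short bars the mean of the 2 arrays of a group and the dashed line the filter level of 19.4. Both Nox4 probe sets have their positive arrays above their negative arrays, and the Cybb means lie under the filter level.

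Cybb, the catalytic subunit of the phagocyte oxidase, had a mean below the filter on all 3 of its probe sets, and none of them was tested. With 1422978_at, the signals were 18.0 and 19.1 in positive cells, against 1.10 and 3.70 in negative cells. With 1436779_at, they were 15.6 and 22.2 in positive cells, against 9.34 and 2.67 in negative cells. With 1436778_at, they were 2.85 and 13.7 in positive cells, against 1.95 and 17.1 in negative cells. The positive arrays were the higher ones with the first and second of these, while the groups overlapped with the third, so the Cybb probe sets disagreed. No fold is given at this brightness: the log2 difference of 1422978_at was 0.91 with a pseudocount of 16, 2.64 with 1 and 0.31 with 64.

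Duox1, the peroxide-forming oxidase of epithelial surfaces, passed the filter by a small margin, with a mean log2 signal of 5.17 against a level of 5.15. Its signals were 19.6 and 19.0 in positive cells, against 16.6 and 25.8 in negative cells. The negative arrays enclosed the positive ones, and the log2 difference was -0.06 ± 0.41 (SE). It was 0.04 with arrays scaled to 1 trimmed mean and 0.11 without negative replicate 2. The nearest member outside the filter was 1436779_at of Cybb, with a mean log2 signal of 4.78. The maturation factors Duoxa1, at 9.60 to 17.2, and Duoxa2, at 5.35 to 27.4, had means below the filter.

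Cyba, the membrane partner of the Nox enzymes, was bright in both populations, at a percentile of 97.0 among all probe sets. The signals of its only probe set, 1454268_a_at, were 2974 and 3044 in positive cells, against 2704 and 2152 in negative cells. The groups did not overlap, and the log2 difference was 0.32 ± 0.17 (SE), or 1.25-fold. The 2 negative arrays differed from each other by 0.33, as much as the groups did. The difference was 0.16 without negative replicate 2 and 0.47 without negative replicate 1. The separation depended on the scaling: deposited intensities were 2932 and 2669 in positive cells, against 2198 and 2928 in negative cells, which overlap, and the difference was then 0.14.

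Poldip2, the activator of Nox4, had overlapping groups on both of its probe sets. With 1450727_a_at, the signals were 739.3 and 848.4 in positive cells, against 749.3 and 633.4 in negative cells. With 1422732_at, they were 648.3 and 779.4 in positive cells, against 577.8 and 700.4 in negative cells. The log2 differences, 0.20 ± 0.21 (SE) and 0.16 ± 0.22 (SE), stood beside gaps between arrays of 1 group of 0.19 to 0.27. With no scaling the differences were -0.00073 and -0.03.

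**Figure D2:**
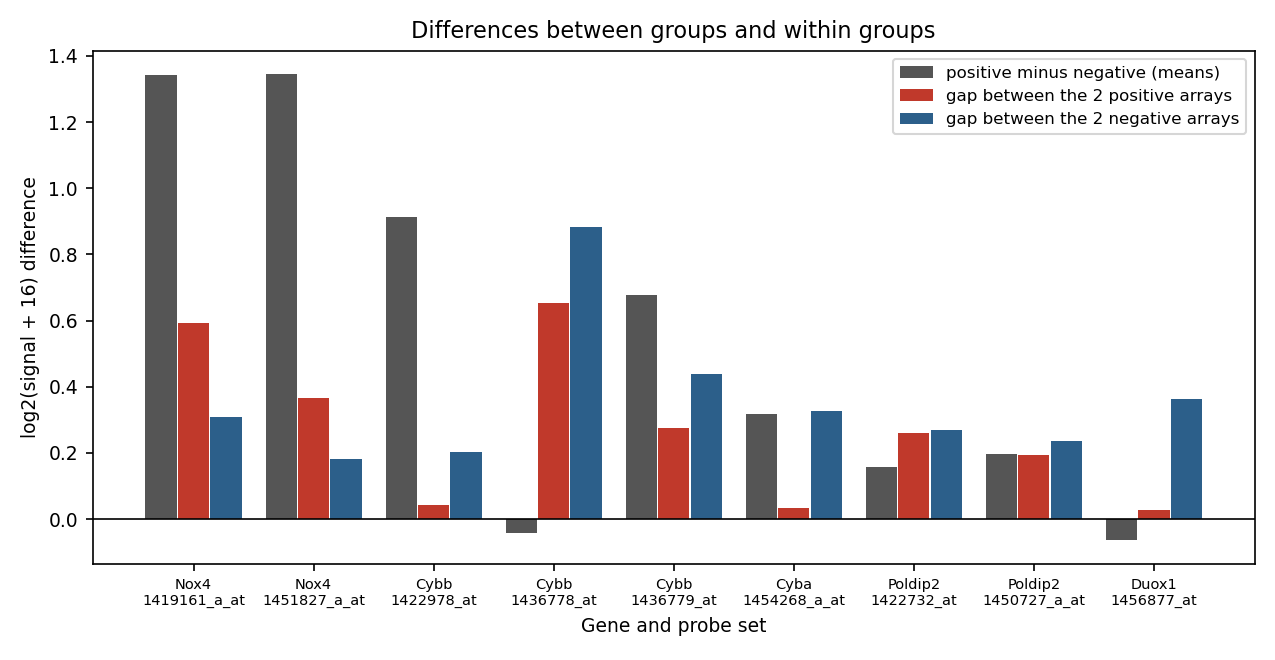
For each oxidase probe set, the difference between the group means on the log2(signal + 16) scale (grey bars, positive minus negative) beside the gap between the 2 positive arrays (red bars) and the gap between the 2 negative arrays (blue bars). For both Nox4 probe sets the difference, 1.34 and 1.35, is larger than either gap, while for Cyba the difference of 0.32 is close to the gap of 0.33 between the negative arrays.

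Counted over genes, 3 of the 4 member genes that passed the filter had a difference over 0 and 1 had one under 0. Groups did not overlap, with the positive arrays higher, in 2 of the 4, Nox4 and Cyba, beside 18.5% of all genes tested. Groups did not overlap, with the positive arrays lower, in 0 of the 4, beside 13.8%. Without the filter, 5 of the 9 member probe sets had separate and higher positive arrays, beside 17.5% of the 34945 probe sets with 1 gene symbol. At an adjusted p under 0.05 (limma, Benjamini-Hochberg over all genes tested) 0 of the 4 genes were called, beside 0.0753% of all genes, or 9 genes. At an unadjusted p under 0.05 there was 1, Nox4, beside 4.45% of all genes. As the genes were picked with these differences known, nothing is read from these counts.

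**Figure D3:**
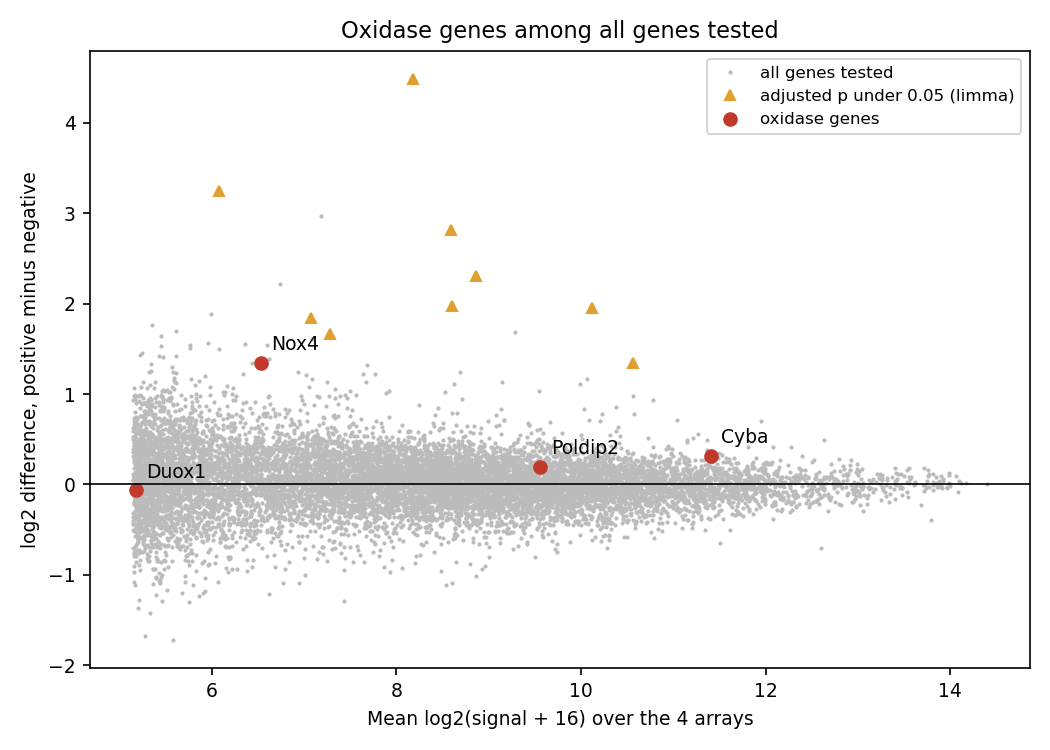
Each of the 11956 genes tested by its mean log2(signal + 16) over the 4 arrays (horizontal axis) and its log2 difference, positive minus negative (vertical axis); red circles are the 4 oxidase genes tested and orange triangles the 9 genes with an adjusted p under 0.05 by limma. Nox4 lies at 1.35, Cyba at 0.32, Poldip2 at 0.20 and Duox1 at -0.06.

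Among the listed partners and regulators of the oxidases, limma called 0 genes, beside 0.0753% of all genes tested. Of the 21 genes in this list, 17 had a probe set and 9 were tested. In limma 0 had an unadjusted p under 0.05, beside 4.45% of all genes. The median log2 difference was 0.09, where all genes had 0.03. Rac1, the GTPase that activates the Nox1 and Cybb complexes, had signals of 4959 and 5360 in positive cells, against 5296 and 4455 in negative cells. Its groups overlapped, with a difference of 0.09 (95% interval -0.24 to 0.41), which was -0.03 with no scaling. The related Rac3 had 160.7 and 158.3 in positive cells, against 102.3 and 113.5 in negative cells, a difference of 0.50 (95% interval -0.02 to 1.03, limma adjusted p 0.985). It was the 1 tested partner whose groups did not overlap, where 18.5% of all genes were separate and higher and 13.8% separate and lower. Rac2, the form of blood cells, had a mean below the filter, at 4.65 to 21.8.

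Cybc1, a chaperone of Cybb and Cyba, had a log2 difference of -0.12 (95% interval -0.63 to 0.39) on its brightest probe set and 0.14 on a dimmer one, both with overlapping groups. The organiser Ncf1 (p47phox) gave 0.28 (95% interval -0.59 to 1.15) on its brightest probe set, with signals of 21.7 to 44.1. A dimmer Ncf1 probe set, below the filter, had the opposite order, with 3.08 and 5.15 in positive cells, against 19.1 and 9.20 in negative cells. Ncf4 (p40phox), the organiser Noxo1, the negative regulator Nrros, the proton channel Hvcn1 and Cyp4f18 were at or under 8.03 on every array. The scaffold Sh3pxd2a gave 0.10 and Sh3pxd2b 0.05, but -0.09 and -0.17 with no scaling. The GTPase Rap1a gave -0.15, and the disulfide isomerases P4hb and Pdia4 gave 0.19 and -0.13. All 5 of these had overlapping groups. Nox3, Nox5 and Noxa1 had no probe set named for them here.

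Over all 5 pathway lists, 62 of 102 listed genes were tested and limma called 0, with a lowest adjusted p of 0.980. The share called over all genes was 0.0753%, so nothing is read from a count of 0. At an unadjusted p under 0.05 there were 3, or 4.84%, beside 4.45% of all genes. One of them was higher, the kinase subunit Pik3cd, with overlapping groups, and 2 were lower. Of 21 listed kinases, exchange factors and other signals that act on the activation of oxidases, in either direction, 17 were tested, with a median of 0.05. Arhgdib, which holds small GTPases in the cytosol, had signals of 273.8 and 158.6 in positive cells, against 404.3 and 344.1 in negative cells. Its log2 difference was -0.79 (95% interval -1.37 to -0.21, limma unadjusted p 0.0114, adjusted p 0.980). The brightest members of the list, the kinases Akt1 and Mapk14, gave 0.17 and -0.05, and Akt1 was -0.0012 with no scaling.

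NADPH is the electron donor of the oxidases. Of 18 listed genes that supply it, 17 had a probe set and 16 were tested, with a median of -0.10. G6pdx was listed but had no probe set named for it here. Idh1, the cytosolic isocitrate dehydrogenase, had signals of 2216 and 1873 in positive cells, against 2660 and 2766 in negative cells. Its log2 difference was -0.41 (95% interval -0.78 to -0.04, limma unadjusted p 0.0338, adjusted p 0.985). The second Idh1 probe set gave -0.47, also with separate groups. The brightest gene of this list, the transketolase Tkt, gave -0.21 with overlapping groups.

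Of 22 listed genes that remove superoxide and peroxide, 19 had a probe set and 15 were tested. Prdx1, Prdx5 and Prdx6 had no probe set named for them here. The 15 tested genes had a median of -0.0056 and differences from -0.30 to 0.32. Their brightest were thioredoxin Txn1, at -0.08, and peroxiredoxin Prdx2, at 0.0012. The sign of both turned with the scaling: Txn1 was 0.14 with arrays scaled to 1 trimmed mean, and Prdx2 was -0.10 with no scaling. Of 20 other sources of oxidants listed, 5 were tested, with a median of 0.07. The brightest, squalene epoxidase Sqle and monoamine oxidase Maoa, gave 0.33 (95% interval -0.04 to 0.70) and -0.17.

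List medians moved with the scaling. With no scaling the median of all genes shifted by -0.177, and the NADPH supply genes then had 0 of 16 above 0, where 7 were above 0 with quantile normalization. Relative to the median of all genes, that list stood at -0.13 with quantile normalization and -0.10 with no scaling, and the partners at 0.06 in both.

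**Figure D4:**
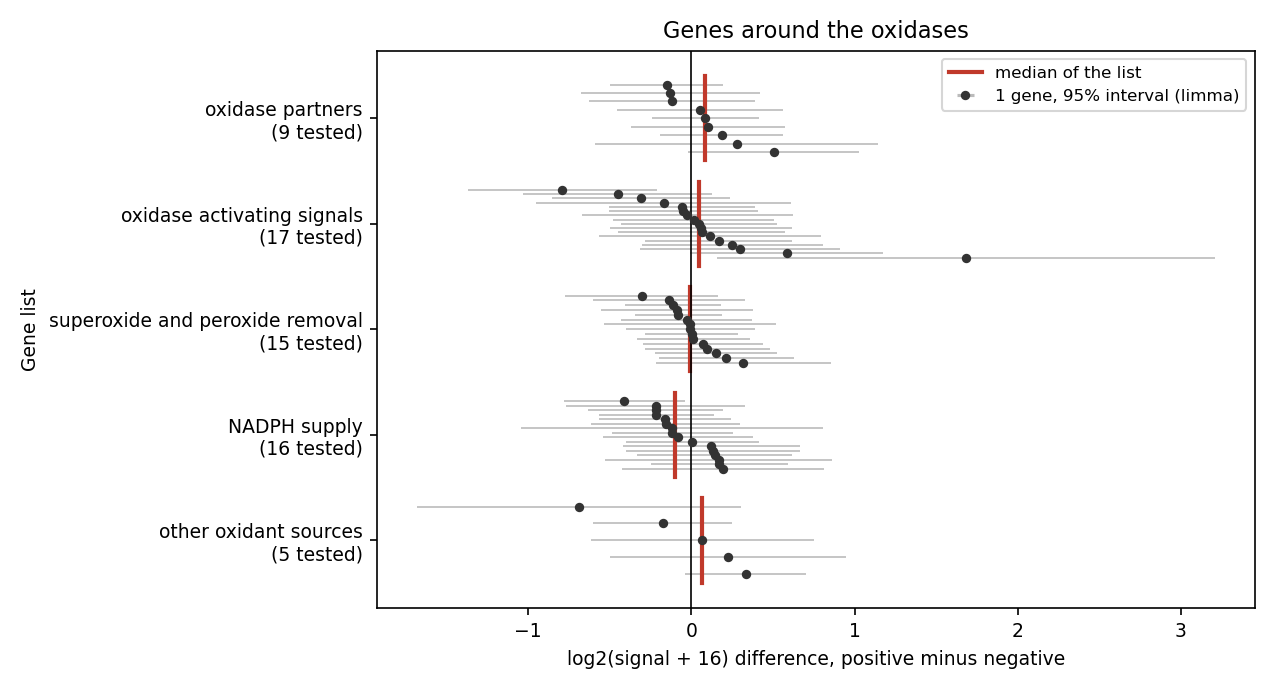
Log2(signal + 16) difference, positive minus negative, of each tested gene in the 5 lists around the oxidases, with its 95% interval from limma (grey lines); red lines are list medians. The medians lie between -0.10 and 0.09, and the outermost point, at 1.68, is the kinase subunit Pik3cd, whose groups overlap.

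Markers of other cells that use these oxidases were counted as well. Of 18 markers of phagocytes, the cells known for Cybb, 17 had a probe set and 8 were tested, with a median log2 difference of 0.26. Limma called 0 of the 8, beside 0.0753% of all genes, and 0 had an unadjusted p under 0.05, beside 4.45%. The summed signals of the 17, 850.4 and 953.2 in positive cells, against 905.0 and 764.5 in negative cells, overlapped. Of the 8 tested, 4 had separate and higher positive arrays, Adgre1, Cd68, Csf1r and Cd14, beside 18.5% of all genes tested. In 1, Itgb2, they were separate and lower, beside 13.8%. Of all 17, 6 were separate and higher, beside 17.5% of unfiltered probe sets with 1 symbol. Another 3 were separate and lower, for which no share over unfiltered probe sets was counted. As the list was chosen with earlier results known, nothing is read from these counts. Itgb2 was at 238.8 and 160.3 in positive cells, against 330.4 and 255.8 in negative cells. Without Itgb2, left out after its values were seen, the sums did not overlap. They were 611.6 and 793.0 in positive cells, against 574.7 and 508.8 in negative cells. Mpo, at 8.3 and 9.3 in positive cells, against 27.8 and 17.3 in negative cells, was also separate and lower. So was S100a9, and both had means below the filter. The defining leukocyte marker Ptprc was under the filter level on every array, at 1.55 and 12.7 in positive cells, against 0.825 and 2.05 in negative cells. Positive replicate 2 was the higher positive array for all 3 Cybb probe sets and for 9 of the 17 phagocyte markers, and the lower one for 8. The part of such cells in the Cybb signals was not tested.

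Fibroblasts and endothelium are known for Nox4. Of 10 fibroblast markers 3 were tested, with 0 called by limma and 1, Pdgfra, lower at an unadjusted p under 0.05. Their summed signals were 207.3 and 162.2 in positive cells, against 232.8 and 221.0 in negative cells, and so were lower where Nox4 was higher. Another of the 3, Pdpn, had separate and higher positive arrays, at 28.0 and 31.1, against 17.0 and 21.8. Without Pdgfra, left out after its values were seen, the sums were 160.3 and 128.7 in positive cells, against 124.9 and 144.4 in negative cells, which overlap. Of 8 endothelial markers 1, Eng, was tested, with a log2 difference of 0.12. The endothelial sums were 521.0 and 480.2 in positive cells, against 433.8 and 405.6 in negative cells, and so were higher where Nox4 was higher. Most of each sum was Eng, at 353.9 to 425.4, and without it the sums were 95.7 and 97.4 in positive cells, against 49.1 and 51.8 in negative cells. The defining endothelial marker Pecam1 was at 3.95 to 6.90 on the 4 arrays. The brightest probe set of Cdh5, another such marker, was higher in positive cells, at 50.02 and 18.2, against 2.88 and 7.15, with a mean below the filter. The other Cdh5 probe set, at 18.3 and 3.85, against 11.7 and 1.90, overlapped, and Tie1 had separate and lower positive arrays, with all 4 at or under 4.15. The part of these cells in the Nox4 signals was not tested. Of the 8 markers of 4T1 epithelium, 4 were called higher in the positive cells by limma, Esrp1, Cldn7, Krt14 and Epcam, and 0 lower. Over all genes the share called was 0.0753%. The list was chosen with earlier results of these data known, so nothing is read from this count. Krt8, Krt18 and Cdh1 of the same list had overlapping groups, with log2 differences of 0.06, 0.08 and 0.28. With no scaling Esrp1 was still called, while Cldn7, Krt14 and Epcam were not (limma adjusted p 1.00 each), with log2 differences of 2.12, 1.76 and 1.16.

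**Figure D5:**
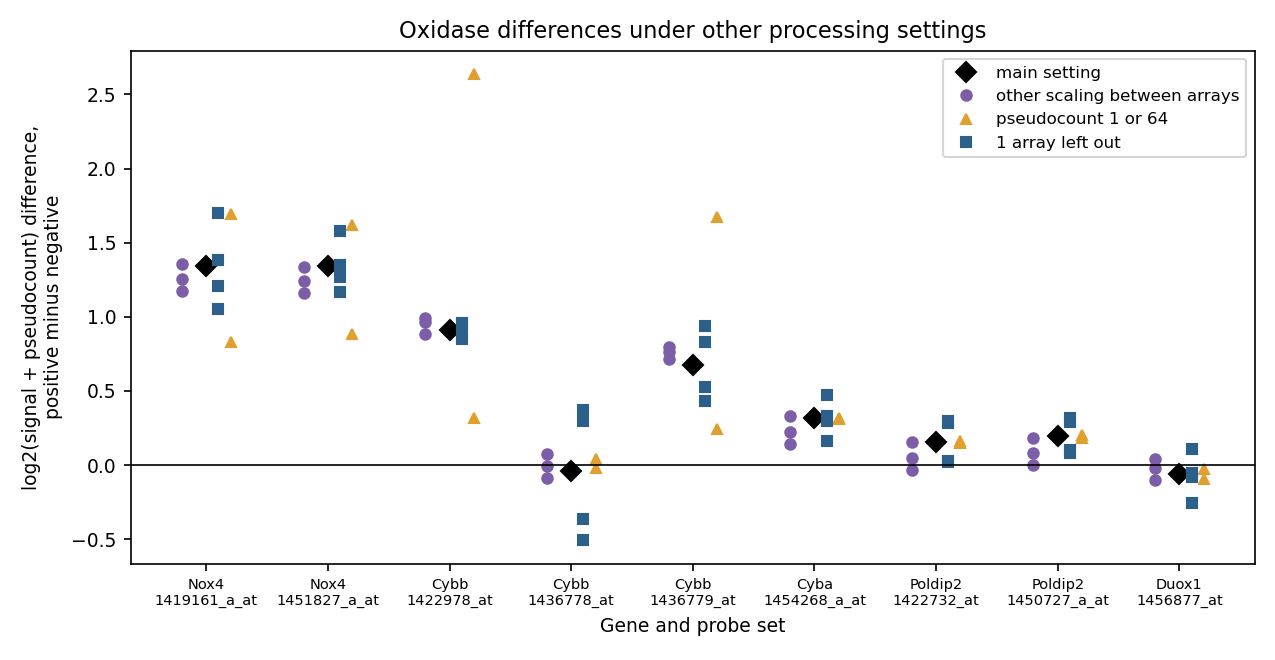
Log2 difference of each oxidase probe set, positive minus negative, under the main setting (diamonds), 3 other scalings between arrays (circles), pseudocounts of 1 and 64 (triangles) and with 1 array left out (squares). Both Nox4 probe sets stay above 0 in all settings shown, from 0.83 to 1.70, while the Cybb probe set 1422978_at runs from 0.31 to 2.64.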

How the data were processed

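Total RNA of 4 samples was measured, 1 one-colour Affymetrix array each. The deposited values were linear intensities, 1 per probe set and array, from 0.1 to 22695.6. GCOS, Affymetrix software, appears in the submitters' processing notes with no role. How probe sets were summarised, corrected for background or scaled is not given in the sources used here.

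Intensities were quantile normalized and transformed as log2(value + 16), a scale that understates differences of dim genes. The 64 control probe sets and those with a mean below the 40th percentile were left out. Names came from the 2016 platform annotation: 34945 probe sets had 1 symbol, 932 several and 9160 none, and the last 2 kinds were not named. The brightest probe set stood for a gene. Groups were compared with limma 3.58.1 in R 4.3.3 (lmFit, eBayes with intensity trend, two-sided, Benjamini-Hochberg over 11956 genes, threshold 0.05). The fit was also run on simulated normal values with equal spread in both groups. That simulation skipped normalization and filter and held no outlying array, so it cannot speak for these. Each SE is the moderated one of limma. Those of probe sets not used for a gene came from a fit of all probe sets above the filter with 1 symbol. An exact permutation test of 1 gene, 2 arrays against 2, cannot go below p = 0.333 and was not used.

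The oxidase genes and the lists were chosen with earlier results of these data known. All oxidase and partner genes with a probe set were named; from other lists, the 2 brightest genes, called genes, and those with an unadjusted p under 0.05 and separate groups. Pik3cd, Xdh and the single markers were named, and 3 marker sums taken without 1 marker, after their values were seen. Alternatives were 3 other scalings, 2 pseudocounts, no filter, 3 treatments of probe sets, no intensity trend, a block on replicate number, and each array left out in turn.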

Additional observations from a re-analysis of the deposited data

How the results depend on the processing

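With the main settings limma called 9 genes, of which 0 were lower. It called 25 with median centring (5 lower), 3 with no scaling, 3 with no filter and 2 with no intensity trend. With a replicate block it called 18, of which 3 were lower. The difference between replicates 1 and 2 in the positive group had a correlation of 0.116, across genes, with that in the negative group. With 1 such difference in each group, this cannot decide whether same-numbered samples were paired. The labels give a shared number only, so the pairing is unknown. Leaving out 1 array gave 6 to 16 genes, of which 0 to 1 were lower; 16 came without positive replicate 1. In these fits the lone array is assumed to vary like the other group. Of the 3 to 5 oxidase genes tested, 0 were called in each other setting that kept all 4 arrays. In those settings 2 to 25 of 11648 to 18193 genes were called, so nothing is read from a count of 0. Among pathway genes 1, Pik3cd, was called with median centring (limma adjusted p 0.000408) and without positive replicate 1 (adjusted p 0.00338), where its adjusted p ran up to 1.00 over the 15 settings; leaving out 1 array gave 0 to 1 such genes. Both Nox4 probe sets, 2 of the 3 Cybb probe sets and Cyba kept their direction in every setting run. The filter, the choice of probe sets, the intensity trend and the block cannot change the difference of a probe set. Only the scalings, the pseudocounts, averaging of probe sets and leaving out an array could. Both Poldip2 probe sets changed sign with no scaling, Duox1 in 2 settings and the Cybb probe set 1436778_at in 4. The cause of these changes was not tested. Signals near the filter level limit what can be said of Cybb and Duox1.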

Other observations

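Xdh, the xanthine dehydrogenase, a source of superoxide and peroxide outside the NADPH oxidases, was dimmer in the CD44v8-10-positive cells. Its signals were 5.75 and 3.42 in positive cells, against 38.1 and 29.6 in negative cells. Both positive arrays were under the filter level of 19.4 and both negative arrays above it. The mean over the 4 arrays was below the filter, so the gene was not tested, and it was singled out after its values were seen.

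Pik3cd, a catalytic subunit of phosphoinositide 3-kinase, had a log2 difference of 1.68 on its brightest probe set. Its signals were 346.7 and 3423 in positive cells, against 427.3 and 257.5 in negative cells, so positive replicate 2 stood apart and the groups overlapped. Without that array the difference was 0.06. The other 2 Pik3cd probe sets above the filter gave 0.09 and -0.02.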
